A study of Mus musculus with 6 samples.

Results

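The transcripts of 9 surface glycoproteins of B cell progenitors were followed through an RNA immunoprecipitation of LIN28B: Cd24a, Cd37, Cd52, Cd53, Cd72, Cd93, Ptprc, Spn and Ly6d. They were chosen by name as surface proteins that B progenitors make at the endoplasmic reticulum (ER), and each matched 1 row of the deposited values. They are 9 of 54752 genes in all and 9 of the 6347 genes that were tested. The tet-LIN28B animals carried a doxycycline (Dox)-inducible, FLAG-tagged human Lin28b cDNA at the Col1a locus together with the Rosa26 rtTA*m2 transactivator, and the control was a co-housed Rosa26 rtTA*m2 littermate without that cDNA. Bone marrow of uninduced adults was freed of red cells and adherent cells and cultured for 5 days in IL-7 at 20 ng/mL and Dox, the control included. The lysate of 2 tet-LIN28B mice and 1 control mouse was immunoprecipitated with anti-FLAG antibody (IP), and 10% of it was kept as the input, giving 6 libraries. The Rosa26 locus expresses the transactivator in most cell types and not in the B lineage alone, and the cells were expanded marrow, not sorted B cells.

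LIN28B is an RNA-binding protein of fetal cells. It blocks the maturation of the let-7 microRNAs, whose precursors it holds through a GGAG motif, and it also binds mRNAs. The related LIN28A was found on mRNAs of ER-destined proteins in mouse embryonic stem cells. An mRNA for a surface protein is brought to the ER membrane by the signal sequence of its nascent chain, and the protein is glycosylated and folded there. The members reach the surface in different ways. CD24, CD52 and LY6D end in a glycosylphosphatidylinositol (GPI) anchor. CD37 and CD53 are tetraspanins, which cross the membrane several times and organise receptors into domains. CD72, CD93, CD45 (Ptprc) and CD43 (Spn) each cross it once.

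GGAG was looked up on the sense strand of 1 GENCODE M21 transcript per gene, the representative coding model. The coding windows below are shown because GGAG is the motif that LIN28 proteins hold in let-7 precursors and the members carry between 0 and 4 copies of it in 1 window. Each is the first stretch of 30 bases of the coding sequence with the most copies of GGAG, read 5′ to 3′, with GGAG in capitals.
Cd72: GGAGaacctgaaaactgaGGAGGAGcGGAG
Cd93: tatcataaacGGAGagccaagaaGGAGGAG
Spn: GGAGgactggggccctgaccctgagcGGAG
Ptprc: tctcttttcacaatGGAGtgtacgagGGAG
Cd37: ctcctgggctgtgtgggggctctaaaGGAG
Cd53: tctatttcctggtccaaaatacctatGGAG
Ly6d: tacttctgcaaaaccgtcacctcagtGGAG
The windows span coding bases 588 to 617 of Cd72, 1792 to 1821 of Cd93, 830 to 859 of Spn, 1211 to 1240 of Ptprc, 217 to 246 of Cd37, 95 to 124 of Cd53 and 127 to 156 of Ly6d. Cd24a and Cd52 had 0 copies in their coding sequences. Of 5636 tested genes with a coding model, 98.4% had at least 1 copy in such a window, 74.0% at least 2, 26.3% at least 3 and 7.1% at least 4, so the Cd72 window was among the densest. Over the whole transcript Cd72 held 21 copies, or 14.8 per kb, at percentile 97.7 of these genes. Cd53 held 1 copy, or 0.574 per kb, at percentile 0.3. Ly6d had 4.03, Cd52 3.89, Cd24a 3.86 and Cd37 4.89 copies per kb, all below the median of 6.89, as did Cd93 with 5.54 and Ptprc with 5.53, whereas Spn had 8.02. A match is a description of these letters and does not mark a bound site.

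Levels are FPKM as deposited, fragments scaled to transcript length and library size. IP over input is the quotient of both FPKM values of a mouse, and its log2 was tested after adding 1 FPKM to each value. FPKM is relative to its library, so a ratio below 1 means a smaller share of the IP library than of the input library. It does not measure the amount of RNA recovered. Genes that averaged at least 10 FPKM over the 3 inputs were tested with limma, and a call is an adjusted p (Benjamini-Hochberg over the 6347 genes) below 0.05. The sums per library ran from 1144868 to 1384941 FPKM. No counts come with FPKM, but the steps of low values in genes with a single transcript gave rough depths of 13000000 to 19700000 fragments, with 61.0% to 86.2% of those values within 0.2 of a whole number of fragments. The depths were fitted to the same values, so these shares are not an independent check of them. At these depths the sparsest member value, Cd37 in the IP of tet-LIN28B mouse 1, stood for about 580 fragments and an error of about 4.14%, from counting alone. In the inputs the mouse gene Lin28b was at 0.62 and 1.03 FPKM in tet-LIN28B mice, against 0.01 FPKM in the control. The transgene is a human cDNA, and whether some of its reads were assigned to the mouse gene was not tested. All 10 B progenitor markers were above 1 FPKM in every input, with summed levels of 6960 and 8200 FPKM in tet-LIN28B mice, against 8140 FPKM in the control. Of these markers 7 were below the control in both tet-LIN28B inputs. Vpreb1, the most abundant, was above it in both, at 3112 and 3364 FPKM, against 3012 FPKM in the control. Rag1 was also above it in both, and Igll1 lay on both sides. The 8 myeloid markers, led by S100a8, S100a9 and Lyz2, summed to 7430 and 4650 FPKM in tet-LIN28B mice, against 6400 FPKM in the control, and the 7 T cell markers to 106 and 35.4 FPKM in tet-LIN28B mice, against 33.1 FPKM in the control. Markers of the labelled cell type were thus present, beside abundant myeloid transcripts. Members such as Cd52, Cd53, Cd37, Ptprc, Spn and Cd93 are made by myeloid cells as well. The part of these cells in the values of any member was not tested.

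In the inputs the members spanned more than 2 orders of magnitude in FPKM. The order was Cd52, Ly6d, Cd24a, Cd37, Cd53, Cd72, Ptprc, Cd93 and Spn by the mean of the 3 mice. The neighbours Cd37 and Cd53 were not separated, since Cd53 was the higher in both tet-LIN28B inputs and Cd37 in the control input. Every other neighbouring pair stood in this order within each of the 3 mice, though Cd93, at 21.3 to 22.5 FPKM, and Spn, at 18.1 to 20.4 FPKM, lay close together.

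The GPI-anchored members were the most abundant and all stood below their input in the IP of both tet-LIN28B mice. Ly6d (chromosome 15, 74762056 to 74763620, GRCm38) encodes a small surface protein that marks lymphoid progenitors committed to the B lineage. It had 370.5 and 480.7 FPKM in the tet-LIN28B IPs, against 1576 and 1904 FPKM in their inputs, and 2818 FPKM in the control IP, against 3142 FPKM in the control input. The ratio was 0.244 ± 0.0123 in tet-LIN28B mice (SD, n = 2), against 0.897 in the control, and both tet-LIN28B ratios lay far below that of the control. Cd24a (chromosome 10, 43578284 to 43584265) encodes heat-stable antigen, a mucin-like adhesion protein used to stage B progenitors. It had 340.8 and 520.0 FPKM in the tet-LIN28B IPs, against 936.6 and 972.8 FPKM in their inputs, and 1596 FPKM in the control IP, against 1585 FPKM in the control input. Its ratio was 0.449 ± 0.121 in tet-LIN28B mice (SD, n = 2), against 1.01 in the control, so the IP was below the input in both tet-LIN28B mice and level with it in the control. Of its 50-base words 3.9% also occur in Gm6212, listed at 0 to 3.11 FPKM.

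Cd52 (chromosome 4, 134082448 to 134095082), which encodes a very short and heavily glycosylated peptide of lymphocytes and myeloid cells, behaved otherwise. It had 1525 and 1811 FPKM in the tet-LIN28B IPs, against 2898 and 3655 FPKM in their inputs, and 2405 FPKM in the control IP, against 4781 FPKM in the control input. The ratio was 0.511 ± 0.0217 in tet-LIN28B mice (SD, n = 2), against 0.503 in the control. The control value lay between those of both tet-LIN28B mice, 0.526 and 0.495, so the transcript was at a like fraction of its input with and without the FLAG-tagged protein. It had the lowest control ratio of all members.

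**Figure D1:**
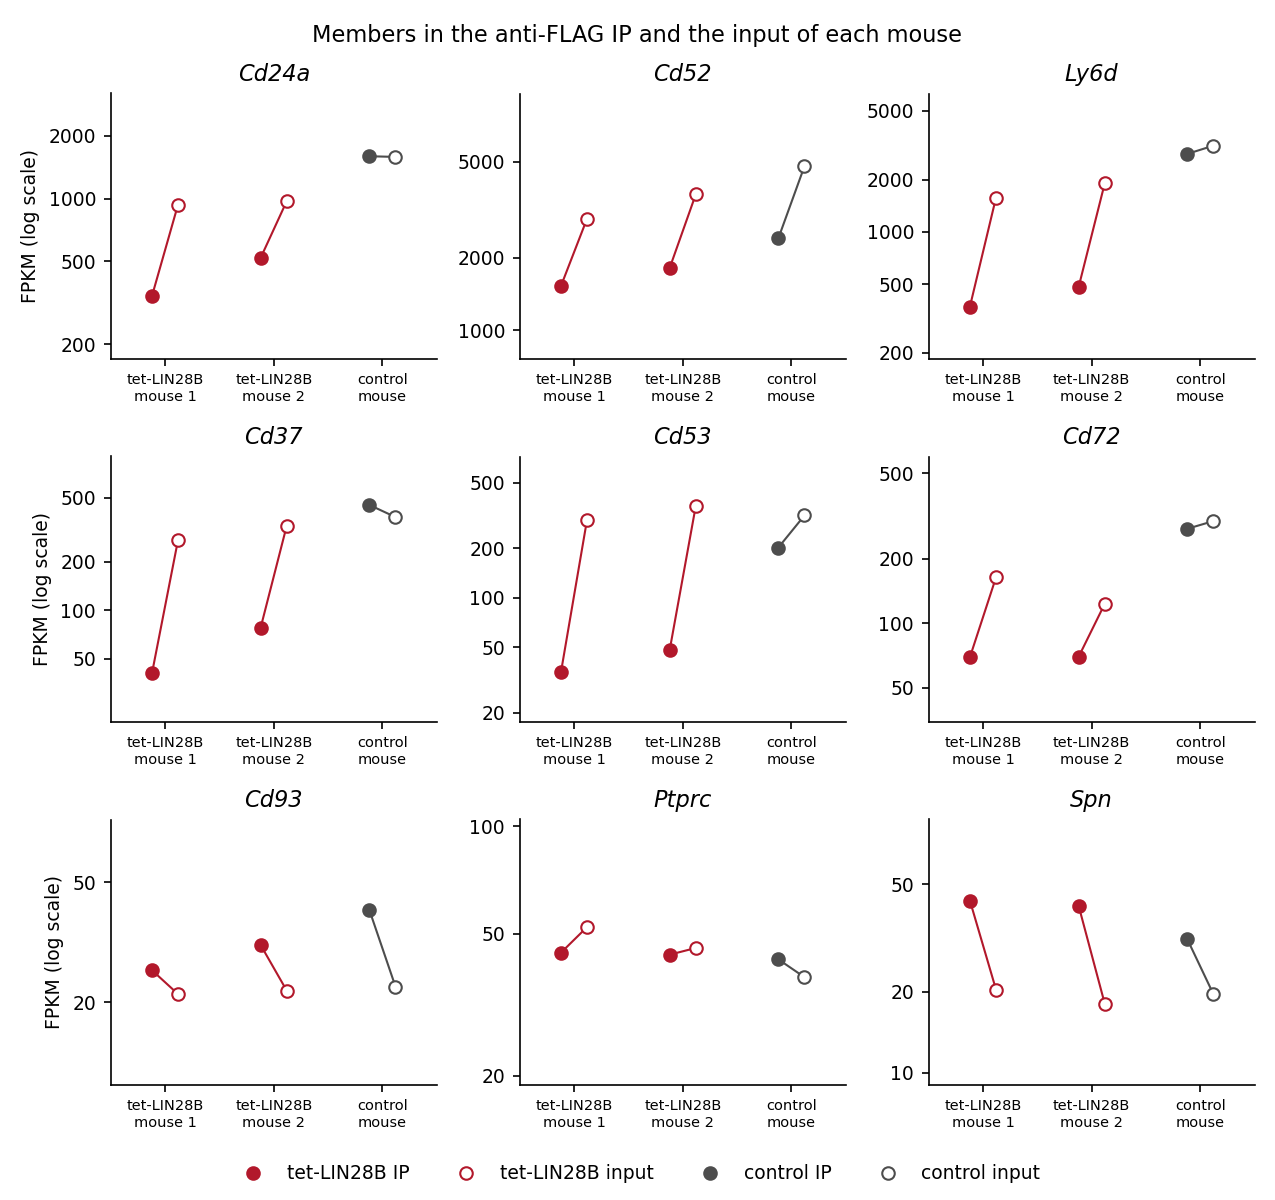
FPKM on a log scale (vertical) of the 9 members in the IP (filled) and input (open) of tet-LIN28B mouse 1, tet-LIN28B mouse 2 and the control mouse (horizontal), with a line joining the libraries of 1 mouse. The lines rise steeply from IP to input in both tet-LIN28B mice for Ly6d, Cd37 and Cd53, are of like slope in all 3 mice for Cd52, and fall from IP to input in all 3 mice for Cd93 and Spn.

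The tetraspanins had the lowest ratios of all members in tet-LIN28B mice. Cd53 (chromosome 3, 106759921 to 106790149), a pan-leukocyte tetraspanin, had 35.2 and 48.0 FPKM in the tet-LIN28B IPs, against 297.3 and 360.1 FPKM in their inputs, and 201.6 FPKM in the control IP, against 315.8 FPKM in the control input. The ratio was 0.126 ± 0.0105 in tet-LIN28B mice (SD, n = 2), against 0.638 in the control. Cd53 was thus below its input in all 3 mice, and much further below in both tet-LIN28B mice. Cd37 (chromosome 7, 45233632 to 45239115), a tetraspanin of B cells and other leukocytes, had 40.5 and 78.0 FPKM in the tet-LIN28B IPs, against 273.4 and 335.2 FPKM in their inputs, and 449.9 FPKM in the control IP, against 378.3 FPKM in the control input. The ratio was 0.190 ± 0.0597 in tet-LIN28B mice (SD, n = 2), against 1.19 in the control, where the IP exceeded the input. Tead2 overlaps 13 bases of the Cd37 transcript on the other strand and was at 0.33 FPKM or less in every library.

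The members that cross the membrane once divided. Cd72 (chromosome 4, 43446462 to 43454628), a C-type lectin that dampens B cell receptor signals, had 69.4 and 69.7 FPKM in the tet-LIN28B IPs, against 163.6 and 123.0 FPKM in their inputs, and 275.5 FPKM in the control IP, against 299.1 FPKM in the control input. Its ratio was 0.495 ± 0.101 in tet-LIN28B mice (SD, n = 2), against 0.921 in the control. Tesk1 lies on the other strand across 313 of the 1419 bases of the Cd72 transcript, at 8.20 to 20.3 FPKM, and with libraries that do not keep strand its reads cannot be told from those of Cd72 there. Cd93 (chromosome 2, 148436640 to 148443563) encodes the antigen of the AA4.1 antibody, which marks early B cells. It had 25.5 and 31.0 FPKM in the tet-LIN28B IPs, against 21.3 and 21.8 FPKM in their inputs, and 40.5 FPKM in the control IP, against 22.5 FPKM in the control input. The ratio was 1.31 ± 0.153 in tet-LIN28B mice (SD, n = 2), against 1.8 in the control, so the IP exceeded the input in all 3 mice.

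Ptprc (chromosome 1, 138062861 to 138175708) encodes CD45, the receptor phosphatase whose B220 isoform defines the B lineage in mice. It had 44.2 and 43.7 FPKM in the tet-LIN28B IPs, against 52.2 and 45.6 FPKM in their inputs, and 42.4 FPKM in the control IP, against 37.8 FPKM in the control input. The ratio was 0.903 ± 0.0778 in tet-LIN28B mice (SD, n = 2), against 1.12 in the control, and the 6 values lay close together. Spn (chromosome 7, 127132232 to 127137823) encodes CD43, the sialomucin that marks pro-B cells. It had 43.5 and 41.7 FPKM in the tet-LIN28B IPs, against 20.4 and 18.1 FPKM in their inputs, and 31.3 FPKM in the control IP, against 19.6 FPKM in the control input. With a ratio of 2.22 ± 0.119 in tet-LIN28B mice (SD, n = 2), against 1.6 in the control, it was the member with the highest ratio in tet-LIN28B mice, and it was above its input in the control too.

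Within the tet-LIN28B mice, 6 of the 9 members had less in the IP than in the input, 1 was higher and 2 passed in neither direction. Among all genes tested 41.9% were lower and 20.2% higher, and the median log2 ratio was -1.02 over the members and -0.35 over all genes. The log2 ratio averaged -2.96 for Cd53 (SE 0.17, limma adjusted p = 0.000125), -2.41 for Cd37 (SE 0.21, adjusted p = 0.000319) and -2.03 for Ly6d (SE 0.18, adjusted p = 0.000296). It was -1.18 for Cd24a, -1.02 for Cd72 and -0.97 for Cd52, with adjusted p-values of 0.00344, 0.00445 and 0.00389 in limma. Spn rose by 1.11 (SE 0.17, limma adjusted p = 0.00212). Cd93, at 0.37 (SE 0.18, adjusted p = 0.113), and Ptprc, at -0.15 (SE 0.17, adjusted p = 0.482), did not pass. Only Cd24a, Cd52, Cd72 and Ly6d reached 50 FPKM in all 4 libraries of the tet-LIN28B mice, the minimum in the study's methods. A fit of 1 residual degree of freedom per gene took most of its spread from all genes together.

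**Figure D2:**
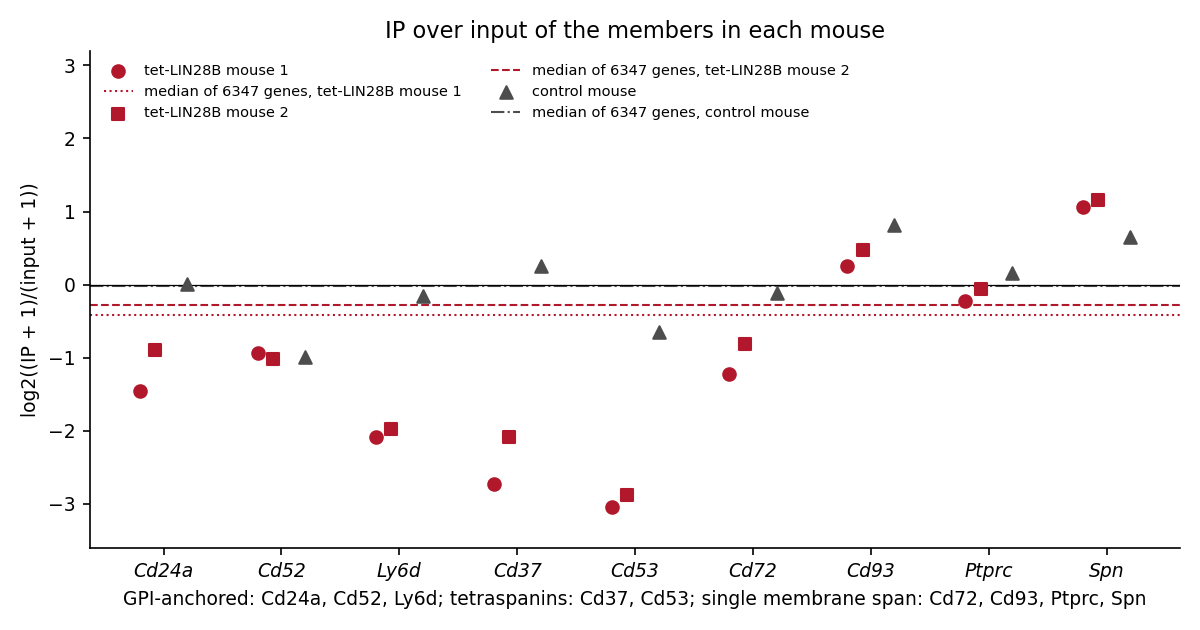
log2((IP + 1)/(input + 1)) (vertical) of each member (horizontal, ordered by membrane anchor) in tet-LIN28B mouse 1 (circles), tet-LIN28B mouse 2 (squares) and the control mouse (triangles), with lines at each mouse's median over the 6347 genes tested. Both tet-LIN28B mice lie below the control for every member except Cd52, where the 3 values range from -1.01 to -0.93, and Spn, where both lie above it.

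The control IP serves as the background of the antibody and beads. In it the members had a median log2 ratio of 0.01, with 5 above and 4 below 0, whereas in the tet-LIN28B mice their medians were -1.22 and -0.90. The medians of all genes tested were -0.41 and -0.28 for tet-LIN28B mice, against -0.02 for the control. The members together held 2490 and 3120 FPKM in the tet-LIN28B IPs, against 6240 and 7440 FPKM in their inputs, and 7860 FPKM in the control IP, against 10600 FPKM in its input. The IP over input of these sums was 0.40 and 0.42 in tet-LIN28B mice, against 0.743 in the control.

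Set against the control, 3 of the 9 members had a lower log2 ratio in tet-LIN28B mice and 0 a higher one. Among all genes tested 17.8% were lower and 4.73% higher. At an unadjusted p below 0.05 there were 5 members, all lower, beside 30% of all genes that were lower at that threshold. The median difference was -0.90 over the members and -0.39 over all genes. The difference in log2 ratio was -2.66 for Cd37 (SE 0.37, limma adjusted p = 0.00991), -2.32 for Cd53 (SE 0.30, adjusted p = 0.00857) and -1.88 for Ly6d (SE 0.30, adjusted p = 0.0129). Cd24a differed by -1.19 (SE 0.36, limma adjusted p = 0.0583) and Cd72 by -0.90 (SE 0.33, adjusted p = 0.0949), and neither passed, though both did (adjusted p = 0.00234 and 0.00815) with the study's minimum of 50 FPKM in the tet-LIN28B libraries. For Cd93 the difference was -0.45 (limma adjusted p = 0.314), for Ptprc -0.31 (adjusted p = 0.470) and for Spn 0.46 (adjusted p = 0.288). The 95% interval of the Spn difference ran from -0.25 to 1.18, so the rise over input in tet-LIN28B mice was not separated from that in the control. For Cd52 it was 0.02 with an interval from -0.71 to 0.75 (limma adjusted p = 0.963). The fit gave the single control mouse the spread of the other mice, and the Ly6d call was lost, at an adjusted p of 0.0502, with a lower minimum of 1 FPKM. Without the mouse as a block only Cd53 was called, with Cd37 at an adjusted p of 0.0602 and Ly6d at 0.0521.

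**Figure D3:**
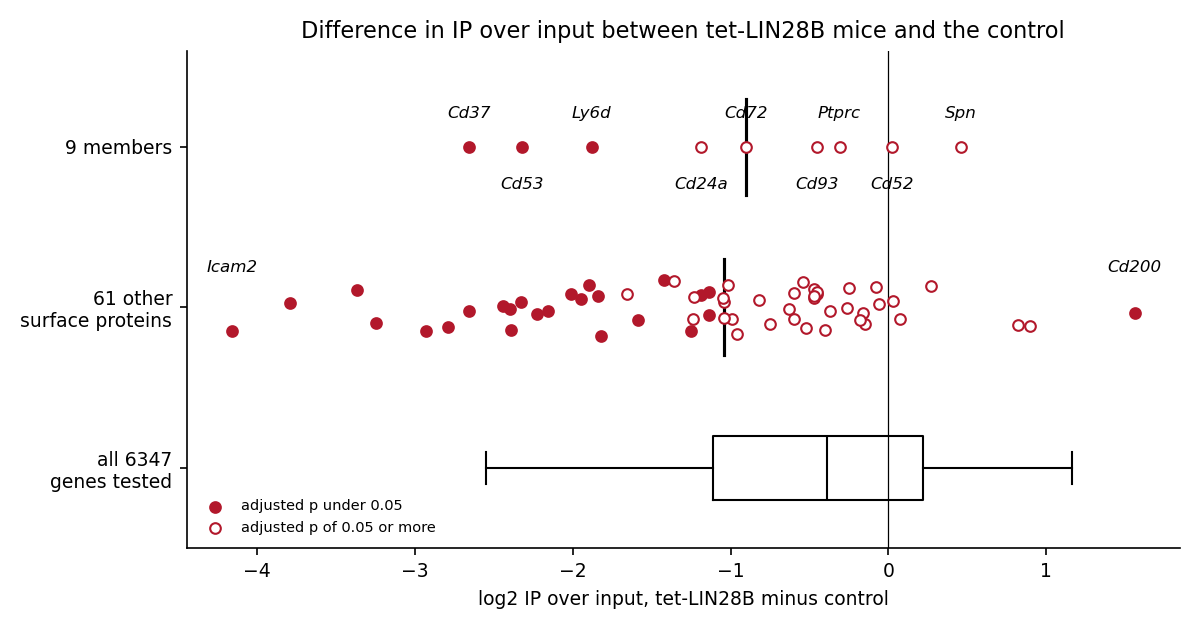
Difference in log2 IP over input, tet-LIN28B minus control (horizontal), for the 9 members (top), 61 other surface proteins (middle, spread vertically at random) and all 6347 genes tested (bottom, box at the quartiles with whiskers at the 5th and 95th percentiles). Filled points passed at an adjusted p under 0.05, and black bars are medians of -0.90, -1.04 and -0.39 from top to bottom.

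In the inputs, before any IP, 0 of the 9 members passed between tet-LIN28B and control mice in limma, while among all genes 0.205% were higher and 0.0788% lower, so this comparison called few genes of any kind. At an unadjusted p below 0.05 there were 3 members, all lower, beside 3.92% of all genes that were lower at that threshold. Cd72 averaged 143 ± 28.7 FPKM in tet-LIN28B inputs (SD, n = 2) and was at 299.1 FPKM in the control, Ly6d averaged 1740 ± 232 FPKM in tet-LIN28B inputs and was at 3142 FPKM in the control, and Cd24a averaged 955 ± 25.6 FPKM in tet-LIN28B inputs and was at 1585 FPKM in the control. Both tet-LIN28B inputs were below the control for these 3, and the log2 differences came to -1.07, -0.86 and -0.73 (limma adjusted p = 0.616 for each). Cd52 at -0.55, Cd37 at -0.32, Cd93 at -0.06 and Ptprc at 0.36 also had both tet-LIN28B inputs on 1 side of the control, with adjusted p-values of 0.740, 0.804, 0.920 and 0.740 in limma. Cd53 and Spn, whose tet-LIN28B inputs lay on both sides, differed by 0.05 and -0.03. In bulk RNA, fewer cells of a type and less RNA per cell cannot be told apart. The ratios above divide by each mouse's own input, so these input differences are already within them.

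The 3 members that were not called lower in the tet-LIN28B IPs, Cd93, Ptprc and Spn, had the longest transcripts, of 6677, 4702 and 3743 nt. The other 6 ran from 514 nt in Cd52, over 744 nt in Ly6d, 1227 nt in Cd37, 1419 nt in Cd72 and 1742 nt in Cd53, to 1816 nt in Cd24a. Cd93, Ptprc and Spn were also the 3 least abundant members in the inputs. Over 5636 genes, which share the same libraries, transcript length and log2 ratio had a Spearman correlation of 0.347 for tet-LIN28B mice and 0.432 for the control mouse, so longer transcripts stood higher in the IP with and without the FLAG-tagged protein. In the shortest quintile of genes, of 132 to 1321 nt, the median log2 ratio was -0.96 for tet-LIN28B mice, against -0.33 for the control. In the longest quintile, from 4045 nt, it was 0.15 for tet-LIN28B mice, against 0.26 for the control. Cd52, Ly6d and Cd37 belong to the shortest quintile, whose median difference from the control was -0.74, and their own differences were 0.02, -1.88 and -2.66. Cd24a, Cd53 and Cd72 belong to the second quintile, with a median difference of -0.54, and differed by -1.19, -2.32 and -0.90. Spn belongs to the fourth quintile, with a median difference of -0.21, and Cd93 and Ptprc to the longest, with -0.14. Members of like length therefore differed widely, and the part of length in their ratios was not tested.

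**Figure D4:**
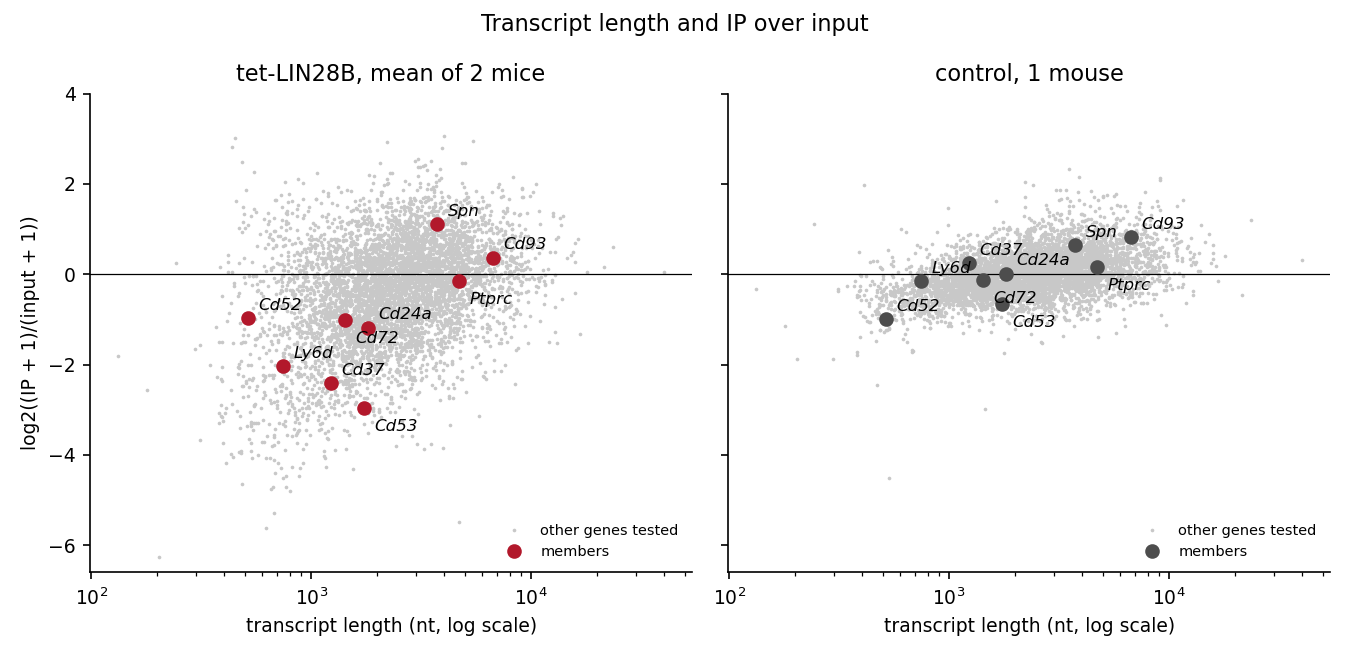
Transcript length in nt on a log scale (horizontal) and log2((IP + 1)/(input + 1)) (vertical) of 5636 genes with a coding model, in tet-LIN28B mice (left, mean of 2) and in the control (right, 1 mouse), with the members as large points. Cd93, Ptprc and Spn lie to the right of the other 6 members in both panels, and Ly6d, Cd37 and Cd53 lie between -2.96 and -2.03 on the left and between -0.65 and 0.25 on the right.

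Base composition did not divide the members as length did. Cd53, at 39.95% GC, and Cd37, at 56.64%, were at percentiles 4.3 and 86.4 of all genes and had the lowest ratios in tet-LIN28B mice. Over the 5636 genes the difference from the control had a Spearman correlation of -0.344 with GC content. That correlation was 0.198 with transcript length and -0.038 with GGAG copies per kb. GGAG copies per kb of transcript divided the members as length did, apart from Cd72. Cd53, Cd24a, Cd52, Ly6d and Cd37 had 0.574 to 4.89 copies per kb, and Ptprc, Cd93 and Spn had 5.53 to 8.02. Cd72 had 14.8. The part of motif density in the ratios was not tested. Cd72, the member with the densest GGAG window printed above, had a difference of -0.90, and Cd52, with 0 coding copies, one of 0.02. Hydrophobic stretches of 19 residues (Kyte-Doolittle mean of at least 1.6), which include signal peptides, numbered 4 in Cd37 and Cd53, 2 in Cd52 and Ly6d and 1 in the others. Of 1471 tested genes with at least 1 such stretch 20.8% were called lower than in the control, with a median difference of -0.52, against 14.8% and -0.29 of 4165 genes without. With 4 or more stretches (230 genes) the share was 26.5% and the median -0.69.

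For comparison, 61 of 83 other surface proteins of B-lineage or haematopoietic cells were abundant enough to be tested. In tet-LIN28B mice 41 of them (67.2%) had less in the IP than in the input and 2 (3.28%) were higher, with a median log2 ratio of -1.13, close to that of the members. Against the control 24 (39.3%) were lower and 1 (1.64%) was higher, with a median difference of -1.04. In the inputs 0 passed in either direction. The lowest ratios were those of Icam2, an integrin ligand, at 0.0182 and 0.0532 in tet-LIN28B mice, against 1.21 in the control, of Cd48, a GPI-anchored ligand of SLAM family receptors, at 0.0462 and 0.105 (tet-LIN28B) against 0.763 (control), and of Cd79b, a signalling chain of the B cell receptor, at 0.0806 and 0.0991 (tet-LIN28B) against 0.932 (control). Their differences from the control were -4.16, -3.25 and -3.37 (limma adjusted p = 0.00735, 0.00935 and 0.00678). Cd74, the invariant chain of MHC class II, differed by -3.79 (limma adjusted p = 0.00792). Without the mouse as a block Cd48 and Cd74 were no longer called (adjusted p = 0.0970 and 0.0725), nor was Cd48 with a minimum of 1 FPKM.

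At the other end stood Itgb7, an integrin chain, with ratios of 1.68 and 3.17 in tet-LIN28B mice, against 1.21 in the control, and the tetraspanin Cd9, with 1.94 and 1.47 (tet-LIN28B) against 0.949 (control). Both rose over input, by 1.16 and 0.75 (limma adjusted p = 0.00701 and 0.0138), but their differences from the control, 0.90 and 0.82, did not pass (adjusted p = 0.164 and 0.113). The rise of Cd9 over input was lost without the mouse as a block (adjusted p = 0.0963). Its difference from the control passed with a minimum of 50 FPKM in the tet-LIN28B libraries (adjusted p = 0.0150) or in the inputs (0.0366) and after centring (0.0484), as did that of Itgb7 after centring (0.0433). Tnfrsf13b, a receptor for the survival factors BAFF and APRIL, had the third highest mean log2 ratio, with ratios of 1.36 and 1.08 in tet-LIN28B mice against 1.18 in the control, and passed in neither comparison. The 1 gene higher than in the control was Cd200, an inhibitory ligand, with ratios of 1.52 and 0.917 in tet-LIN28B mice, against 0.383 in the control (difference 1.56, limma adjusted p = 0.0345), a call lost with a minimum of 1 FPKM, a pseudocount of 0.1 FPKM, no trend or no block.

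By kind of protein, 3 of 8 tested tetraspanins other than Cd37 and Cd53 were lower in the IP of tet-LIN28B mice and 1, Cd9, was higher. Among all genes 41.9% were lower and 20.2% higher. Against the control 2 of the 8 were lower, beside 17.8% of all genes. These were Cd81, a widely expressed tetraspanin, with ratios of 0.146 and 0.210 (tet-LIN28B) against 0.865 (control), and Tspan31, with 0.146 and 0.120 (tet-LIN28B) against 0.972 (control). Low ratios like those of Cd37 and Cd53 were thus not seen in every tetraspanin. All 5 tested proteins grouped as GPI-anchored, other than the members and without Bst2, were lower in the IP of tet-LIN28B mice. Against the control 3 of them, Cd48, Ly6e and Bst1, were lower. Bst2, which also has such an anchor, was lower in the IP at -1.24 (limma adjusted p = 0.00242). Its difference from the control, -1.04, did not pass (adjusted p = 0.0732). These groupings were made after the values had been seen.

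The tested gene most like each member was taken as the one with the smallest distance over the log2 ratios of the 3 mice, among genes within a factor of 2 of its mean input. For Ly6d this was Igll1, a chain of the surrogate light chain, with ratios of 0.215 and 0.270 in tet-LIN28B mice, against 0.786 in the control, at a distance of 0.25. For Cd37 it was Cmtm7, at a distance of 0.18, with ratios of 0.159 and 0.260 (tet-LIN28B) against 1.18 (control). For Cd53 it was Asf1a, a histone chaperone, at 0.15, with 0.113 and 0.138 (tet-LIN28B) against 0.588 (control). For Cd24a it was the ribosomal protein gene Rpl10a, at 0.13, with 0.378 and 0.541 (tet-LIN28B) against 0.928 (control). Usmg5 was nearest to Cd52 at 0.24, with 0.507 and 0.451 (tet-LIN28B) against 0.576 (control), and Ndufs7, of mitochondrial complex I, to Cd72 at 0.06, with 0.438 and 0.573 (tet-LIN28B) against 0.891 (control). For the 3 members that were not called lower, the nearest genes were Coro2a to Cd93, Pold1 to Ptprc and 1700017B05Rik to Spn, at 0.07, 0.05 and 0.03. The less abundant members had more genes to be matched with, 3622 for Spn and 132 for Cd52, which shortens such distances.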

How the data were processed

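The authors aligned paired-end reads of SMART-Seq v4 and Nextera XT libraries, which do not keep strand, to mm10 and deposited FPKM values; the submitters' processing notes name STAR 2.7.1 and RSEM 1.28. The sources used here do not give the annotation release. Fraction, genotype and mouse were taken from titles and column names; a further line of each sample's description names the opposite fraction and was not followed. The Dox concentration is given with different units in the labels and the methods and is not printed. No pair of libraries held identical values.

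A log2((IP + 1)/(input + 1)) per mouse entered limma 3.58.1 (R 4.3.3), with genotype as the factor and a trend on mean level, where a gene averaged at least 10 FPKM over the inputs. Tet-LIN28B means were tested against 0 and against the control, and inputs were fitted as log2(FPKM + 1). P-values were adjusted by Benjamini-Hochberg. Nothing beyond the mouse number separates the replicates. In the ratio fit the spread between the 2 tet-LIN28B mice gave 1 residual degree of freedom per gene. The spread pooled over all genes gave 5.26, so p-values rest mostly on the pooled spread. The mouse is the block, through the ratio, because input and IP come from the same animal; across genes, the input difference between both tet-LIN28B mice and their IP difference had a correlation of 0.12. Transcript features come from GENCODE M21 (GRCm38, the build of mm10), read with Python 3.11.15 and Biopython 1.88. The model was 1 protein-coding transcript of the basic set with annotated start and stop codons, which 5636 of 6347 genes (88.8%) had. Transcripts with a CCDS entry were preferred, then APPRIS principal ones, then the longest coding sequence. The scripts were tested on simulated data.

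The members and lists were chosen with earlier results of these data known. Genes named are all members, the 3 highest and 3 lowest other surface proteins by each ratio comparison, and the gene nearest to each member. Ly6e, Bst1, Bst2, Cd81 and Tspan31 were named after their values were seen. Alternatives changed the filter, pseudocount, scaling, centring, trend and block and left out each tet-LIN28B mouse.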

Additional observations from a re-analysis of the deposited data

Results flagged for a closer look

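Named genes are given here where the IP over input differed between genotypes by limma's test of the difference itself, in a design with 1 control mouse. Among the members these were Cd37 at -2.66, Cd53 at -2.32 and Ly6d at -1.88 on the log2 scale, tet-LIN28B minus control. With either tet-LIN28B mouse alone the values were -2.34 and -2.97 for Cd37, -2.24 and -2.40 for Cd53 and -1.83 and -1.93 for Ly6d. Among the other surface proteins they were Icam2 at -4.16, Cd74 at -3.79, Cd79b at -3.37, Cd48 at -3.25 and Cd200 at 1.56. Without the replicate block the members Cd37 and Ly6d were not called (limma adjusted p = 0.0602 and 0.0521). Nor were Cd48, Cd74 and Cd200 (adjusted p = 0.0970, 0.0725 and 0.0862). With a minimum of 1 FPKM Ly6d, Cd48 and Cd200 were not called. In the tet-LIN28B IPs Icam2 was at 0.48 and 1.56 FPKM, where the pseudocount of 1 FPKM weighs on its value. No group held enough samples for a search for outlying libraries.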

How the results depend on the processing

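Each mouse's log2 ratios centred on their median moved the median over the members to -0.67 in tet-LIN28B mice and to -0.58 against the control. With it 2 members, Spn and Cd93, were called higher in the IP, beside 32.2% of all genes. Ptprc then turned to 0.20 in tet-LIN28B mice and to 0.01 against the control, neither passing. Centring moved the median of all genes from -0.35 to 0 in tet-LIN28B mice and from -0.39 to -0.07 against the control, and the share of higher among all calls against the control from 21% to 41.6%. Scaling to TPM moved these medians to -0.24 and -0.55, turned Cd52 to -0.15 and Tnfrsf13b to -0.13 against the control and the Spn input difference to 0.01, none passing, and called Cd24a (adjusted p = 0.0268). A minimum of 50 FPKM in the 3 inputs kept 6 members. It dropped Cd93 and Ptprc, and also Spn, which was the 1 member called higher in the IP. Of the members kept 0 were higher in the IP, beside 23.8% of all genes. Against the control 5 were lower, Cd24a and Cd72 being added, beside 32.6% of all genes. A minimum of 50 FPKM in both tet-LIN28B inputs and IPs kept 4 members and again dropped Spn. Of the 4 kept, 0 were higher in the IP, beside 35.8% of all genes. Against the control 3 were lower (Cd24a, Cd72 and Ly6d), beside 22.2% of all genes. Without the replicate block 1 member, Cd53, was lower against the control, and all genes called fell to 45 higher and 272 lower, from 300 and 1130. Genes called in that comparison were 48 higher and 318 lower at a minimum of 1 FPKM, 339 and 324 with 50 FPKM in tet-LIN28B inputs and IPs, 287 and 667 with 50 FPKM in the inputs, 194 and 800 at a pseudocount of 0.1 FPKM, 165 and 928 without a trend and 661 and 928 after centring. In the IP against the input of tet-LIN28B mice they were 1284 higher and 2661 lower, 522 and 512 with 50 FPKM in tet-LIN28B inputs and IPs, 487 and 1025 with 50 FPKM in the inputs and 2042 and 2134 after centring, and in the inputs 13 and 5, 0 and 0 at a minimum of 1 FPKM and 16 and 0 at a pseudocount of 0.1 FPKM. Of the other surface proteins 24 were lower against the control, but 6 without the replicate block, 9 of 80 at a minimum of 1 FPKM and 7 of 15 with 50 FPKM in tet-LIN28B inputs and IPs. With either tet-LIN28B mouse alone the members' median ran from -1.22 to -0.90 in tet-LIN28B mice and from -1.11 to -0.69 against the control, with no test since no residual degree of freedom is left. The causes of these shifts were not tested. Counting error was at most about 4.14% for any member value, and the single control mouse left its own spread unmeasured.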
